A study of Mus musculus with 10 samples.

Results

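The subunits of protein phosphatase 1 (PP1) and protein phosphatase 2A (PP2A) were examined in the lactating mammary gland of QSi5 and CBA mice. They are 10 genes, namely Ppp1ca, Ppp1cb, Ppp1cc, Ppp1r1a, Ppp2ca, Ppp2cb, Ppp2r1a, Ppp2r1b, Ppp2r2a and Ppp2r5a, out of 12393 genes named by 1 symbol on the arrays. Every probeset whose annotation gave 1 of these symbols and no other was taken, which made 22 probesets of 22626. A probeset is a group of short probes on the array whose signals are summarised into 1 value. QSi5 is an inbred line selected for large litters, and it was set against CBA, an inbred line without that selection. The labels give no transgene, deletion or treatment in either strain. Both were in their first lactation and were sampled on day 9, with 5 mice per strain and 1 Affymetrix array per mouse. The series record places the collection in the fourth inguinal gland after a forced weaning. The study's methods describe a right inguinal gland at lactation day 9 and mention no forced weaning. They name only the MOE430A 2.0 chip, whereas the sample records, followed here, also give the MOE430 2.0 chip. Chip type was balanced, with 3 mice of each strain on the MOE430 2.0 chip and 2 of each on the MOE430A 2.0 chip.

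PP1 and PP2A remove phosphate from serine and threonine residues and account for most such activity in animal cells. PP1 consists of a catalytic subunit, alpha (Ppp1ca), beta (Ppp1cb) or gamma (Ppp1cc), held by one of many partners that choose the substrate or block the enzyme. PP2A is built from a catalytic C subunit (Ppp2ca or Ppp2cb), a scaffold A subunit (Ppp2r1a or Ppp2r1b) and an interchangeable B subunit such as Ppp2r2a or Ppp2r5a. In insulin signalling PP1 activates glycogen synthase. PP2A acts on Akt, on beta-catenin and its destruction complex in the Wnt pathway, and on tight junction proteins, which seal the alveoli of the secreting gland. The study itself placed Ppp1ca, Ppp1cb and Ppp2r1a in such pathway lists from these same arrays, so their values here are not independent evidence.

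All values are log2 intensities, and each difference is QSi5 minus CBA with limma's standard error (SE). Array medians lay between 4.21 and 4.30. Probesets entered the fit if their mean intensity, unlogged, was over 20 in QSi5, in CBA or in both, which left 11412, and a probeset was called at a Benjamini-Hochberg adjusted p under 0.05. That threshold was passed by 336 of them, or 2.94%, and by 172, or 1.51%, in the direction of lower in QSi5. Of the phosphatase probesets 19 of 22 passed the intensity filter, and each of the 10 genes kept at least 1. The one nearest to the limit on the inside was 1428265_at of Ppp2r1b, with means of 4.65 in QSi5 and 4.67 in CBA. The nearest on the outside was 1429715_at of Ppp2r2a, with means of 3.52 and 3.37 in QSi5 and CBA. The others below it were 1453260_a_at of Ppp2r2a, with means of 3.10 and 3.45 in QSi5 and CBA, and 1421822_at of Ppp2cb, with 2.60 and 2.57. Since the signal also depends on the probes, levels are compared between strains and not between probesets.

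Among the 19 tested probesets 1 was called, 1431328_at of Ppp1cb, which was lower in QSi5. At an unadjusted p under 0.01, the looser threshold of the methods, 3 passed, against 6.49% of all tested probesets. They were Ppp1cb 1431328_at, Ppp1ca 1460165_at and Ppp2r1a 1438383_x_at. At an unadjusted p under 0.05 there were 7, against 15.1%. The strains did not overlap in 1 of the 19, against 5.14% of all. The difference was below 0 in 15 of the 19, or 78.9%, and in 49.8% of all tested probesets. The median difference of the phosphatase probesets was -0.22, where that of all probesets was 0.00. Of those 15, 9 belong to Ppp2r1a and Ppp1cb. By gene, on the brightest probeset of each, 6 of the 10 genes lay below 0 with a median of -0.11, and 49.1% of all genes lay below 0 with a median of 0.00. The 7 with an unadjusted p under 0.05 came from 4 genes, Ppp1ca, Ppp1cb, Ppp2ca and Ppp2r1a, and several probesets of 1 gene measure the same RNA samples, so that neither these 7 nor the 15 are a count of independent genes. In glands measured whole, fewer cells of a type and less RNA per cell cannot be told apart.

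**Figure D1:**
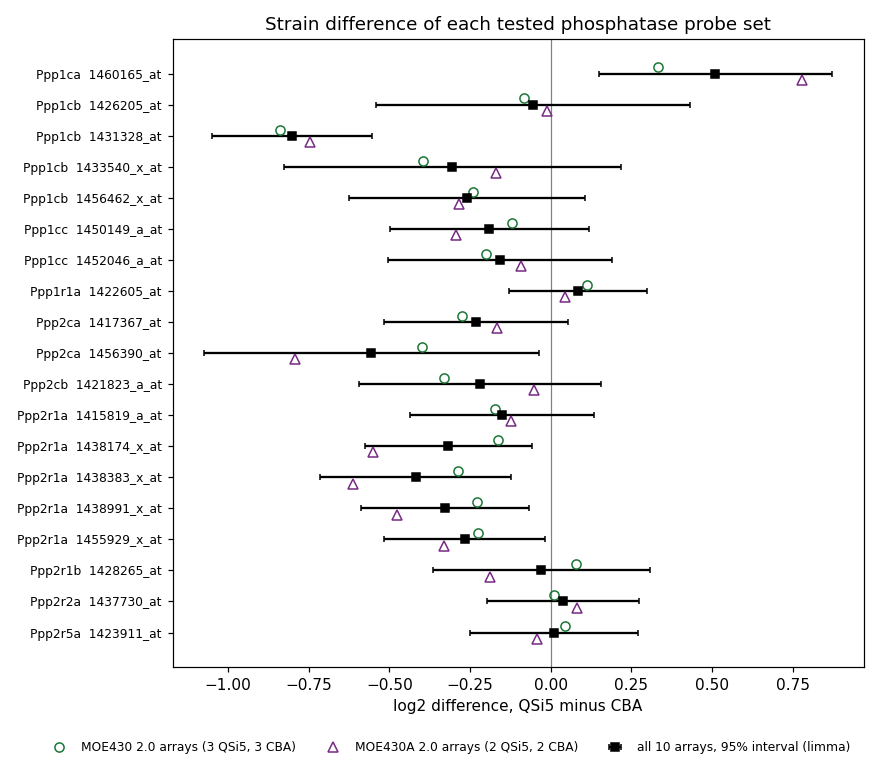
Strain difference (log2, QSi5 minus CBA) of each of the 19 tested phosphatase probesets, with the value from all 10 arrays and its 95% interval from limma (black), and the difference within the MOE430 2.0 arrays (green circles) and within the MOE430A 2.0 arrays (purple triangles). Ppp1cb 1431328_at lies farthest below 0 at -0.80, Ppp1ca farthest above at 0.51, and all 5 Ppp2r1a probesets lie below 0 on both chip types.

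Ppp1cb, the beta catalytic subunit of PP1 and the one that joins the myosin phosphatase of contractile cells, had 4 probesets, all tested. Probeset 1431328_at measured 6.25, 6.15, 6.30, 6.14 and 6.20 in QSi5 replicates 1 to 5, against 7.16, 6.87, 7.03, 7.27 and 6.73 in CBA replicates 1 to 5. All 5 QSi5 mice lay below all 5 CBA mice, and the QSi5 mice spread far less than the CBA mice. The means were 6.21 ± 0.07 in QSi5 and 7.01 ± 0.22 in CBA (SD, n = 5 each). The difference of -0.80 (SE 0.11, 95% interval -1.05 to -0.56) corresponds to a 1.74-fold lower intensity in QSi5 (limma, adjusted p = 0.00152). It ranked 96 of the 11412 probesets by p. It was -0.84 within the MOE430 2.0 arrays and -0.75 within the MOE430A 2.0 arrays. On either chip type alone, with 6 or 4 arrays, it was not called (adjusted p = 0.0553 and 0.242).

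The other 3 probesets of Ppp1cb were not called. Probeset 1426205_at averaged 8.04 ± 0.39 in QSi5 and 8.09 ± 0.42 in CBA, a difference of -0.05 (SE 0.22, adjusted p = 0.939). Its 95% interval ran from -0.54 to 0.43 and does not reach the -0.80 of 1431328_at. Probeset 1433540_x_at measured 9.77, 9.70, 8.86, 8.73 and 8.94 in QSi5 replicates 1 to 5, against 9.17, 9.81, 9.99, 9.38 and 9.16 in CBA replicates 1 to 5. In each strain the MOE430A 2.0 arrays, replicates 1 and 2 of QSi5 and 2 and 3 of CBA, were the brighter, so that the strains overlapped over all mice. Within each chip type, however, every QSi5 mouse lay below every CBA mouse, here and in 1456462_x_at. Its strain difference was -0.31 (SE 0.24, adjusted p = 0.612), and that of 1456462_x_at was -0.26 (SE 0.17, adjusted p = 0.524). With strain in the fit, MOE430 2.0 arrays differed from MOE430A 2.0 arrays by -0.78 for 1433540_x_at (adjusted p = 0.0117) and by -0.52 for 1456462_x_at (adjusted p = 0.0239). A chip effect passed in 2 of the 19 phosphatase probesets, both of this gene, against 0.526% of all probesets. With chip type as a block the strain difference of both still was not called (adjusted p = 0.13 and 0.126). The strains were apart in this way, in the same direction on both chip types, in 4 of the 19 phosphatase probesets, namely 3 of Ppp1cb and that of Ppp1ca, against 8.45% of all tested probesets.

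To compare 1431328_at with the rest of its gene, the mean of the other 3 probesets was subtracted from it in each mouse. The result averaged -1.41 ± 0.38 in QSi5 and -0.81 ± 0.39 in CBA, a difference of -0.60 (exact two-sided permutation test over mice, p = 0.0714, smallest possible 0.00794). The difference was -0.60 within the MOE430 2.0 arrays and -0.59 within the MOE430A 2.0 arrays. With mice permuted only within each chip type, a variant that was not planned, the exact permutation p was 0.0167 over 120 splits. That is the smallest two-sided value those splits allow. Probeset 1431328_at was singled out because it was called, which limits both tests, and over all mice the p did not pass. The part of the gene that each probeset covers is not given in the sources used here.

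**Figure D2:**
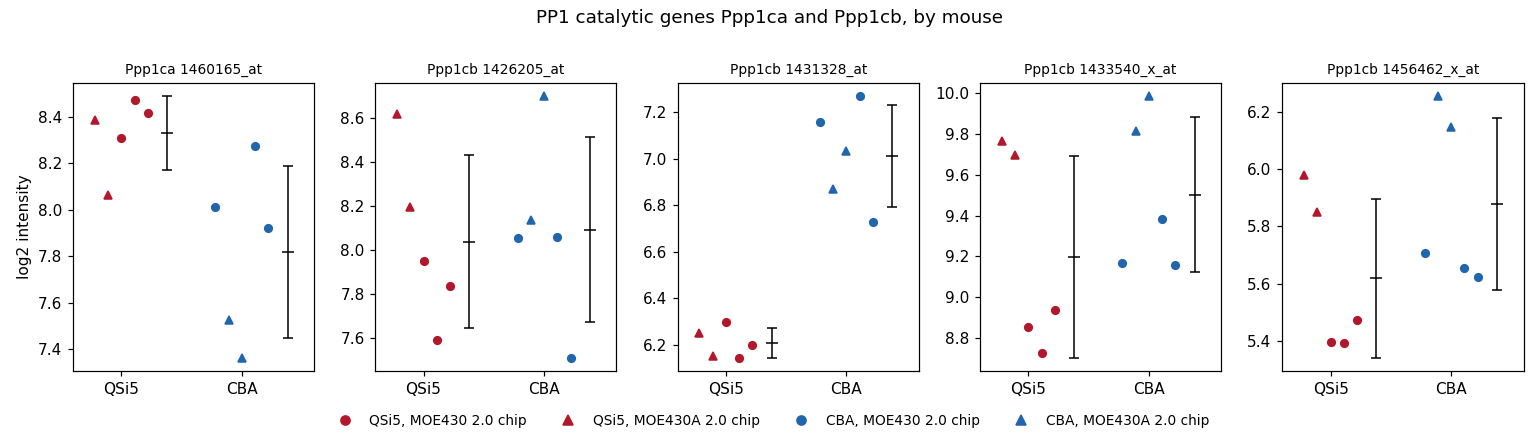
Log2 intensity in each mouse for the Ppp1ca probeset and the 4 Ppp1cb probesets, QSi5 in red and CBA in blue, with circles for MOE430 2.0 and triangles for MOE430A 2.0 chips and bars for the mean and SD of 5 mice. In 1431328_at all QSi5 mice lie below all CBA mice, while in 1433540_x_at and 1456462_x_at the MOE430A 2.0 arrays lie above the MOE430 2.0 arrays of their strain.

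Ppp1ca, the alpha catalytic subunit of PP1, was the phosphatase gene with the highest difference, on its only probeset, 1460165_at. It measured 8.38, 8.07, 8.31, 8.47 and 8.42 in QSi5 replicates 1 to 5, against 8.01, 7.53, 7.36, 8.27 and 7.92 in CBA replicates 1 to 5. Of the QSi5 mice 4 lay above every CBA mouse, and the overlap came from QSi5 replicate 2 and CBA replicate 4. The means were 8.33 ± 0.16 in QSi5 and 7.82 ± 0.37 in CBA. The difference of 0.51 (SE 0.17, 95% interval 0.15 to 0.87) had an unadjusted p of 0.0096 in limma and was not called (adjusted p = 0.15). It was 0.33 within the MOE430 2.0 arrays and 0.78 within the MOE430A 2.0 arrays, where both CBA mice, replicates 2 and 3, had the lowest values of all. With chip type as a block it passed (adjusted p = 0.0473), in a fit that called 3.62% of all probesets and 2 of the 19 phosphatase probesets. It also passed when CBA replicate 4 was left out (difference 0.62, adjusted p = 0.0487). Ppp1ca and Ppp1cb 1431328_at thus stood at opposite ends of the phosphatase probesets, but only the value of Ppp1cb passed the threshold with all mice and no block.

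Ppp1cc, the gamma catalytic subunit of PP1, did not pass on either of its probesets. The strains differed by -0.19 (SE 0.14, adjusted p = 0.594) on 1450149_a_at, where QSi5 mice lay between 9.10 and 9.35 and CBA mice between 9.04 and 9.77. On 1452046_a_at the difference was -0.16 (SE 0.16, adjusted p = 0.705). In both, CBA replicate 1 was the highest of all mice, and without it the differences were -0.10 and -0.02. Ppp1r1a, inhibitor-1, blocks PP1 after it is phosphorylated by protein kinase A. Its probeset 1422605_at averaged 5.14 ± 0.15 in QSi5 and 5.06 ± 0.07 in CBA, a difference of 0.09 (SE 0.10, adjusted p = 0.742).

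The catalytic subunits of PP2A gave no call. Ppp2ca, the alpha C subunit, had the second lowest difference of the 19 on 1456390_at. That probeset measured 5.36, 5.13, 4.82, 4.97 and 4.58 in QSi5 replicates 1 to 5, against 5.36, 5.81, 6.26, 4.81 and 5.39 in CBA replicates 1 to 5. The strains overlapped through CBA replicate 4, which was below all but 1 of the QSi5 mice, and through QSi5 replicate 1. The difference was -0.56 (SE 0.24, 95% interval -1.07 to -0.04, adjusted p = 0.293), with -0.40 within the MOE430 2.0 arrays and -0.79 within the MOE430A 2.0 arrays. With chip type as a block the adjusted p was 0.0823. Its other probeset, 1417367_at, measured 8.41, 8.11, 8.32, 8.10 and 8.46 in QSi5 replicates 1 to 5, against 8.92, 8.37, 8.50, 8.35 and 8.43 in CBA replicates 1 to 5. CBA replicate 1 stood above all others there. The difference was -0.23 (SE 0.13, adjusted p = 0.454) with it and -0.13 without it.

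Ppp2cb, the beta C subunit, passed the intensity filter on 1421823_a_at. It measured 6.72, 6.56, 6.70, 6.56 and 6.73 in QSi5 replicates 1 to 5, against 7.55, 6.80, 6.59, 6.92 and 6.51 in CBA replicates 1 to 5. The QSi5 values fell inside the CBA range, and CBA replicate 1 was again the highest. The difference was -0.22 (SE 0.17, adjusted p = 0.612) over all mice and -0.05 without CBA replicate 1.

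Ppp2r1a, the alpha scaffold of PP2A that carries most of its A subunit in mammalian tissues, was lower in mean in QSi5 on all 5 of its probesets, and 0 of the 5 were called. The values with the lowest p were those of 1438383_x_at, at 9.05, 8.96, 8.72, 9.22 and 8.97 in QSi5 replicates 1 to 5, against 9.48, 9.61, 9.63, 9.05 and 9.25 in CBA replicates 1 to 5. All 5 QSi5 mice lay below the CBA median, and the strains overlapped because CBA replicate 4 lay below QSi5 replicate 4 and just below QSi5 replicate 1. The means were 8.98 ± 0.18 in QSi5 and 9.40 ± 0.25 in CBA, and the difference was -0.42 (SE 0.14, 95% interval -0.72 to -0.12, unadjusted p = 0.00965, adjusted p = 0.15). Of the others, 1438991_x_at differed by -0.33 (SE 0.12, adjusted p = 0.207) and 1438174_x_at by -0.32 (SE 0.12, adjusted p = 0.227). Probeset 1455929_x_at differed by -0.27 (SE 0.11, adjusted p = 0.296) and 1415819_a_at by -0.15 (SE 0.13, adjusted p = 0.646).

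The 5 Ppp2r1a probesets had a median difference of -0.32, and 4 of them had an unadjusted p under 0.05. Those 4 carry the suffix _x_at, by which Affymetrix marks probesets with probes that can also match other transcripts. The remaining one, 1415819_a_at, measured 7.07, 7.04, 7.15, 7.18 and 7.16 in QSi5 replicates 1 to 5, against 7.75, 7.29, 7.06, 7.08 and 7.17 in CBA replicates 1 to 5. Here the QSi5 mice were nearly level, 4 of them lay inside the CBA range, and CBA replicate 1 stood far above the rest. Without that mouse the difference was -0.03. For 1438383_x_at the difference without it was -0.40 (adjusted p = 0.243). Within the MOE430 2.0 arrays 1438383_x_at differed by -0.29 and within the MOE430A 2.0 arrays by -0.61. Ppp2r1b, the beta scaffold, averaged 4.65 ± 0.20 in QSi5 and 4.67 ± 0.30 in CBA on 1428265_at, a difference of -0.03 (SE 0.15, adjusted p = 0.955), with a 95% interval from -0.36 to 0.31.

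**Figure D3:**
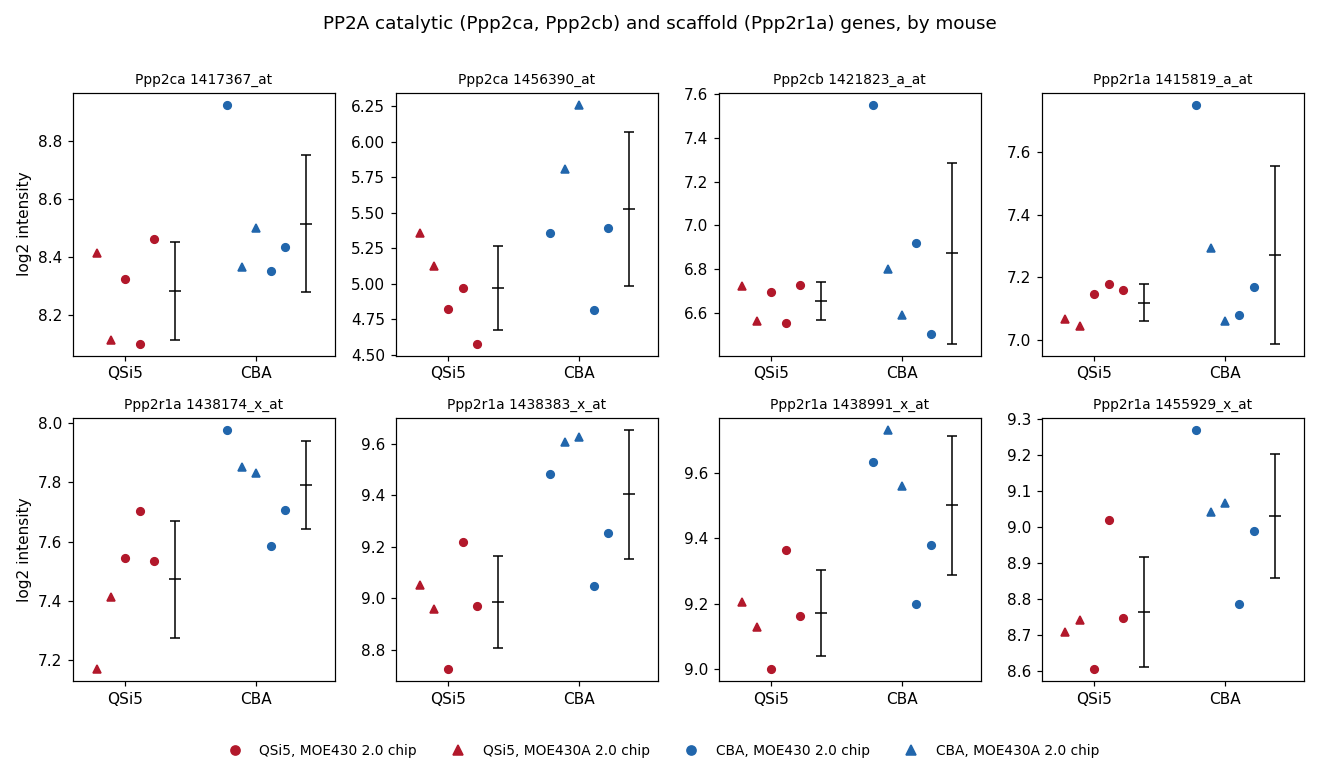
Log2 intensity in each mouse for the tested probesets of the PP2A catalytic genes Ppp2ca and Ppp2cb and of the scaffold gene Ppp2r1a, QSi5 in red and CBA in blue, with circles for MOE430 2.0 and triangles for MOE430A 2.0 chips and bars for the mean and SD of 5 mice. The strains overlap in every panel, and CBA replicate 1, the leftmost blue point, is the highest mouse in 5 of the 8 panels, at 8.92 for Ppp2ca 1417367_at, 7.55 for Ppp2cb, and 7.75, 7.97 and 9.27 for Ppp2r1a 1415819_a_at, 1438174_x_at and 1455929_x_at.

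The B subunits direct PP2A to its substrates, and both that were examined lay close to 0. Ppp2r2a, B55 alpha, averaged 6.60 ± 0.16 in QSi5 and 6.56 ± 0.14 in CBA on 1437730_at, a difference of 0.04 (SE 0.11, adjusted p = 0.91, 95% interval -0.20 to 0.27). Ppp2r5a, B56 alpha, averaged 6.84 ± 0.10 in QSi5 and 6.83 ± 0.23 in CBA on 1423911_at, a difference of 0.01 (SE 0.12, adjusted p = 0.98, 95% interval -0.25 to 0.27). Both intervals exclude the -0.80 of Ppp1cb 1431328_at and a rise as large as the 0.51 of Ppp1ca. Those are point values with errors of their own, and the interval of Ppp1ca, 0.15 to 0.87, overlaps both.

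Several mice lay at the extremes of their strain in many phosphatase probesets. At the low end, CBA replicate 5 was the lowest CBA mouse in 8 of the 19 (18.3% of all probesets) and CBA replicate 4 in 7 (17.9%). QSi5 replicate 3 was the lowest QSi5 mouse in 7 (15.2%) and QSi5 replicate 4 in 7 (22.5%). At the high end, CBA replicate 1 was the highest CBA mouse in 7 of the 19, against 20.2% of all probesets, and in 5 of the 11 PP2A probesets. Without it the median difference of the 19 was -0.10, while that of Ppp1cb 1431328_at was -0.77 (adjusted p = 0.00543). QSi5 replicate 4 was the highest QSi5 mouse in 9 of the 19, against 19.7% of all probesets. Those 9 include all 5 probesets of Ppp2r1a, and the 7 of CBA replicate 1 include both of Ppp1cc. These counts are therefore not of independent genes, and the shares of all probesets are only a rough measure beside them. In QSi5 replicate 4 Ptprc, the leukocyte antigen CD45, was at 8.10, while the other QSi5 mice lay between 4.13 and 4.83. The leukocyte markers Cd52 (8.67), Lyz2 (8.72) and, by less, Cd3e (7.16) were also highest there among QSi5 mice. Adgre1 (5.96) lay within the range of the other QSi5 mice, as did Cd68 (2.97), which was below the filter. The summed level of the 7 leukocyte markers on the chips, added unlogged and given as log2, ranged from 8.09 to 10.37 in QSi5 and from 8.08 to 8.81 in CBA, and 0 of the 5 tested were called. Without QSi5 replicate 4 the difference of Ppp2r1a 1438383_x_at was -0.48 (adjusted p = 0.139), that of Ppp1ca 0.47 (adjusted p = 0.269) and that of Ppp1cb 1431328_at -0.79 (adjusted p = 0.00617).

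Markers of the gland's cell types were read beside these values. All 8 epithelial markers were tested, with the milk protein gene Csn2 at 13.85 in both strains, and their summed level ranged from 15.54 to 15.60 in QSi5 and from 15.42 to 15.55 in CBA. Added unlogged, that level mostly reflects the milk protein genes Wap (14.20 in both strains), Csn2 and Lalba. The keratins and Epcam hardly enter it, so it says little about the amount of epithelium. Of these 8 only Krt8, a keratin of luminal cells, was called, at -0.83 (SE 0.16, adjusted p = 0.0161). Lalba, the milk protein alpha-lactalbumin, lay on the other side at 0.40 (SE 0.11, adjusted p = 0.0845) with no overlap between the strains, and it passed once chip type entered the fit (adjusted p = 0.0405). The summed level of adipocyte markers ranged from 9.66 to 10.16 in QSi5 and from 9.91 to 11.12 in CBA. Of the 5 tested, 0 were called. Fabp4, the fatty acid carrier of adipocytes, differed by -0.73 (SE 0.23, adjusted p = 0.132). Like Lalba, Fabp4 fell under the threshold when the fit included chip type (adjusted p = 0.0383). Its dimmer probeset 1451263_a_at, at -0.85, did so too (adjusted p = 0.0214, against 0.263 without chip type). The other tested adipocyte markers differed less, with Adipoq at -0.07, Retn at -0.11, Lipe at -0.15 and Lep at 0.09. Endothelial markers summed to between 6.08 and 6.45 in QSi5 and between 6.37 and 6.60 in CBA, with 0 of 2 called. Myoepithelial markers had 0 of 5 called and muscle markers 0 of 1. The part of these cell types in the phosphatase values was not tested.

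The partners of both enzymes and their relatives were taken from lists of 69 genes, of which 52 were on the chips and 42 passed the filter. Each gene stood by its brightest probeset. Of these 42 genes 0 were called in limma, against 2.7% of all 7361 genes, and 4 had an unadjusted p under 0.05. The median difference was -0.05, and 24 of the 42 lay below 0. On the same footing of 1 probeset per gene, the 10 phosphatase genes had 6 below 0 and a median of -0.11, and 0 of those 10 brightest probesets, which do not include 1431328_at, were called, with Ppp1ca and Ppp2r1a at an unadjusted p under 0.05. The gap between the 2 medians was not tested.

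Of 14 tested PP1 targeting and inhibitory subunits 8 lay below 0. Ppp1r2, inhibitor-2, had the lowest difference. It measured 6.62, 5.69, 6.39, 5.93 and 6.17 in QSi5 replicates 1 to 5, against 6.71, 6.54, 7.36, 6.82 and 6.56 in CBA replicates 1 to 5. Only QSi5 replicate 1 reached into the CBA range. The difference was -0.64 (SE 0.20, adjusted p = 0.131), whereas a dimmer probeset of Ppp1r2, 1417341_a_at, differed by 0.03 (SE 0.29, adjusted p = 0.972). Ppp1r7, the leucine-rich repeat subunit SDS22, differed by -0.35 (SE 0.11, adjusted p = 0.156) with no overlap between the strains. Ppp1r14b, an inhibitor of the CPI-17 family, differed by -0.27 (SE 0.12, adjusted p = 0.297).

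Among 9 other B-type subunits of PP2A, Ppp2r5b, B56 beta, also had no overlap between strains, at -0.27 (SE 0.10, adjusted p = 0.234). Of the 42 related genes only Ppp1r7 and Ppp2r5b had no overlap, and 5.14% of all tested probesets had none either. The striatins, which build a PP2A complex with kinases, lay on both sides of 0, with Strn4 at 0.20 (adjusted p = 0.359) and Strn at -0.32 (adjusted p = 0.363). Of 9 PP2A modifying and inhibitory proteins, Anp32a, an inhibitor of PP2A, had the highest difference at 0.28 (SE 0.14, adjusted p = 0.366). Lcmt1, which methylates the C subunit, and Ppme1, which removes that methyl group, differed by 0.13 (adjusted p = 0.628) and 0.12 (adjusted p = 0.673). In 10 genes of the related phosphatases, on brightest probesets, the difference closest to the threshold was that of Ppp3r1, the calcium-binding subunit of calcineurin, at 0.20 (adjusted p = 0.352). A dimmer probeset of Ppp6r3, 1454030_at, differed by 0.45 (SE 0.15, adjusted p = 0.174), whereas the brightest of that gene differed by -0.11 (adjusted p = 0.827). Ppp4r2, a regulatory subunit of phosphatase 4, differed by -0.20 (adjusted p = 0.584) and Ppp3ca, a catalytic subunit of calcineurin, by 0.15 (adjusted p = 0.612).

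**Figure D4:**
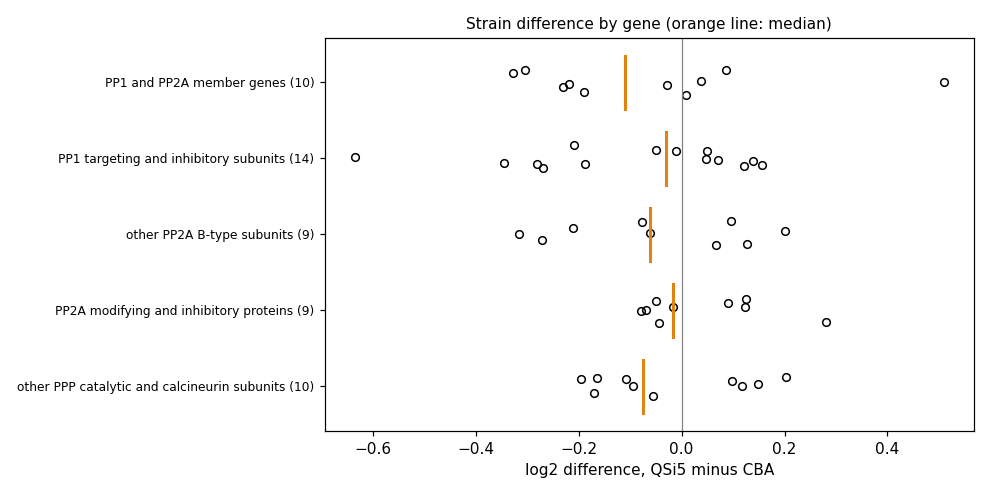
Strain differences (log2, QSi5 minus CBA) on the brightest tested probeset of each gene, for the 10 phosphatase genes (top) and for 4 lists of related genes, each open circle 1 gene and each orange line the median. The median is -0.11 for the 10 genes and lies between -0.08 and -0.02 in the lists.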

How the data were processed

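Total RNA of each gland was hybridised to 1 array. The authors deposited log2 values made with RMA in the affy package, which corrects background, quantile normalises and summarises probes, with both chip types normalised together on 22690 shared probesets. Versions are not given in the sources used here. After 64 control probesets were left out, probesets were kept as in the methods, where the unlogged value of the mean log2 intensity exceeded 20 in at least 1 strain. The strains were compared over all 10 arrays in a linear model without covariates (R 4.3.3, limma 3.58.1, moderated two-sided test), with p-values adjusted by Benjamini-Hochberg over the 11412 kept probesets. Groups were the strains of the sample records, and 0 columns were unmapped. The number of arrays limits the precision. On simulated data the fit recovered 19 of 50 probesets shifted by 0.5 and 46 of 50 shifted by 1, among 11412. Of its 178 calls 14 were of unchanged probesets. The simulated noise was independent between probesets and held no chip effect, so these rates are only a rough guide for the real arrays. Named were all members and, of each related list, up to 3 genes with the lowest p on the brightest probeset. Ppp6r3 was named beyond that rule, with a dimmer probeset of lower p. The members and lists were chosen with earlier results of these data known. Alternatives varied the filter (a minimum of 50 or none), normalisation, chip type, replicate block, variance model, array weights and each mouse.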

Additional observations from a re-analysis of the deposited data

Results flagged for a closer look

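Of 38 groups of 5 mice examined, 1 held a mouse far from the others. Ppp2ca 1417367_at reached 8.92 in CBA replicate 1, and the gap to the next CBA mouse took 0.743 of the range of the CBA mice, above Dixon's value of 0.71. By chance about 1 group in 20 would do so.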

How the results depend on the processing

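The direction of 15 of the 19 phosphatase probesets was the same under all alternatives run, and the other 4, Ppp1cb 1426205_at, Ppp2r1b, Ppp2r2a and Ppp2r5a, lay near 0. The probeset filters, the chip and replicate blocks and the variance model leave each difference unchanged in this balanced design. A direction could change only with normalisation, array weights, a chip type alone or a mouse left out. Ppp1cb 1431328_at was called in 19 of 21 alternatives, with differences from -0.87 to -0.74, and failed only on each chip type alone. Ppp1ca was called in 2 of 21, with differences from 0.33 to 0.78, and the other 17 in 0. The MOE430 2.0 arrays alone called 146 probesets and 0 of the phosphatases, the MOE430A 2.0 arrays alone 65 and 0. Chip type as a block called 413 and 2. Leaving out 1 mouse gave 215 to 415 probesets, against 336 with all mice, and 1 to 2 of the phosphatases (2 without CBA replicate 4). Without QSi5 replicate 3 the count was 215, and without QSi5 replicate 5 it was 221. The related lists gave 0 calls in every alternative. With the replicate block 260 probesets and 1 of the phosphatases were called. Deviations of mice with the same number correlated between -0.37 and 0.29, and only number 2 matched best with itself, so the numbers were not taken as pairs.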
